A study of Mus musculus with 16 samples.

Results

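The claudins are the membrane proteins that form the strands of tight junctions. Described here are 10 of them in sorted mouse liver cells: Cldn1, Cldn2, Cldn3, Cldn4, Cldn5, Cldn6, Cldn7, Cldn8, Cldn12 and Cldn14. They were found by gene name in the array files, control spots left out, which gave 11 probes for the 10 genes (Cldn1 has 2) out of 41174 probes for 28030 genes. All 10 passed the filter on dim probes and were among the 24127 genes tested. The arrays hold another 16 claudin genes on 17 probes, which serve for comparison.

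The design sets cells that carry a pair of surface antigens against cells that carry neither, in injured and in uninjured livers. All mice were of the c129/S3 strain, and dissociated liver cells were sorted by flow cytometry for the surface antigen MIC1-1C3 (M) and for CD133, the product of Prom1. DDC (3,5-diethoxycarbonyl-1,4-dihydrocollidine), which disturbs heme synthesis and provokes growth of bile ductules in mice, was mixed into the diet at 0.1% by weight for 2 weeks. The groups were M+133+ cells from DDC livers (n = 4), M+133+ cells from untreated livers (n = 4), M-133- cells from DDC livers (n = 4) and M-133- cells from untreated livers (n = 2). No transgene or gene deletion is given for any group. The ages of the mice and the number of mice behind each sample are not given in the sources used here. The design text calls the samples biological replicates and the repeat arrays of 2 of them technical ones.

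Claudins of neighbouring cells meet at the apical end of the lateral membrane and close the space between the cells. Some seal that space, and others line pores through it that pass chosen ions or water. In the liver, hepatocytes use them to separate bile from blood, bile duct cells to line the ducts, and endothelial cells to join vessel walls, and each of these cell types has its own set.

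Of the 10 claudins, 9 have promoter windows in the RefSeq table used here, 14 windows in all, each from 250 bases before to 50 bases after an annotated start. These windows were searched on both strands for the letters CACCTG, the E-box that Snail and Zeb repressors can bind in claudin and E-cadherin genes. The E-box lay in 1 window each of Cldn3, Cldn4, Cldn6, Cldn7 and Cldn14, 5 of 14 windows, and 20.2% of all 32851 mouse promoter windows hold it. The windows of Cldn3, Cldn4, Cldn6 and Cldn7 are shown because they hold the E-box and belong to claudins that were higher in M+133+ cells. The window of Cldn2, also higher there, holds no E-box. Cldn14, with an E-box, was called in neither treatment. The E-box is in capitals (CAGGTG is the same box read from the other strand). The window of Cldn5, which was lower in M+133+ cells, is shown beside them. Its capitals mark AACNNGTT, the core motif of Grainyhead-like factors, which 4.2% of all windows hold. All coordinates of the windows are on GRCm38.p6.
Cldn3, chr5:134985964-134986263, plus strand: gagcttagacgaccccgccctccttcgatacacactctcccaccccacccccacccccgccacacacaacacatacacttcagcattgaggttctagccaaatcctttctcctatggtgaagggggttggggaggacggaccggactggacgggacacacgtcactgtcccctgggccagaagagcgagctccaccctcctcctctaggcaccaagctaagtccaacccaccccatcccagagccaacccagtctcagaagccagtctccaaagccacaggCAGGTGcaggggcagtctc
Cldn4, chr5:134946885-134947184, minus strand: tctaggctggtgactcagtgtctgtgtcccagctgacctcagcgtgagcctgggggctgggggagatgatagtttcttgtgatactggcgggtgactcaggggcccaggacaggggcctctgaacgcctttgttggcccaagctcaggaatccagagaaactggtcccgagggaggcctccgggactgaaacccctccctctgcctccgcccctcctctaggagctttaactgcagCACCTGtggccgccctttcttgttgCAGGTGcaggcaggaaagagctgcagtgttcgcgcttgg
Cldn6, chr17:23679115-23679414, plus strand: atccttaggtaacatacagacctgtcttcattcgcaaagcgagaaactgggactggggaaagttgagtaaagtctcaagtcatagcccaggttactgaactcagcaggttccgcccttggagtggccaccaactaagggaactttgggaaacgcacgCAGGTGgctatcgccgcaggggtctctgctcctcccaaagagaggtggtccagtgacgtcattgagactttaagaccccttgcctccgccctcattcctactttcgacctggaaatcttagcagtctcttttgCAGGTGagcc
Cldn7, chr11:69965171-69965470, plus strand: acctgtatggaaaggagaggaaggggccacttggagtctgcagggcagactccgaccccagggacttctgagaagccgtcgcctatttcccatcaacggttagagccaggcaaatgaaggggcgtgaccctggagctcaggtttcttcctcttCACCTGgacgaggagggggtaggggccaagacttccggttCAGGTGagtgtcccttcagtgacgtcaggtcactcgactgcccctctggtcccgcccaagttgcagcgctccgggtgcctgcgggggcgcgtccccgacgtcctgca
Cldn5, chr16:18776597-18776896, plus strand: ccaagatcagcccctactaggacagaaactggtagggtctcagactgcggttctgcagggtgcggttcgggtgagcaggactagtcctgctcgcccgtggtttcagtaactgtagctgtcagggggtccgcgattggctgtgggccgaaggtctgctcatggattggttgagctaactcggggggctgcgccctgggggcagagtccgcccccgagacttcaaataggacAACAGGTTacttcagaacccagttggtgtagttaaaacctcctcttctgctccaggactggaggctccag
The E-box of Cldn4 was found at bases -14 to -9 and at 12 to 17, counted from the start, and that of Cldn7 at -97 to -92 and at -57 to -52. In Cldn6 it was found at -93 to -88 and at 41 to 46, and in Cldn3 at 32 to 37. The letters TATAAA were found in Cldn2 alone of the 9, at -35 to -30, and in 13.6% of all windows. A GC box (GGGCGG) lay in 8 of the 14 windows, which belong to 7 genes, and in 35.7% of all windows. The HNF1 motif was found in none, and in 0.00913% of all windows. A match describes letters in these windows and is no evidence of binding.

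The level of a gene is the log2 processed signal of its probe minus that of the 75th percentile of the array, so 0 is the brightness of that percentile. Levels of different probes are not set against each other. The 75th percentile lay between 602.8 and 2732.2 intensity units on the 16 arrays of the 14 samples. Between 59.7% and 77.0% of an array's probes were called well above background. Prom1, whose product was used for the sort, was higher in M+133+ than in M-133- cells by 7.98 on the log2 scale in DDC livers (SE 0.88, limma adjusted p = 3.62e-05) and at least 196-fold in untreated livers (adjusted p = 0.000102). In M-133- cells of DDC livers Prom1 was well above background on 1 of 4 arrays. Of 7 bile duct markers, 6 were higher in M+133+ cells of DDC livers and 7 of untreated livers. Of 7 hepatocyte markers, 6 were lower in M+133+ cells of DDC livers and 5 of untreated livers, and for 7 endothelial markers these numbers were 6 and 7. Every marker of these 3 lists was well above background on some array of each group. In bulk samples like these, fewer cells of a type and less RNA per cell cannot be told apart. With 4, 4, 4 and 2 samples, the number of samples limits the precision, above all for M-133- cells of untreated livers.

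The first question was which claudins mark M+133+ against M-133- cells. In DDC livers 6 claudins were higher and 2 lower in M+133+ cells, and in untreated livers 5 were higher and 2 lower (limma, adjusted p under 0.05 over 24127 genes). Over all genes, 6.09% were called higher and 6.18% lower in DDC livers (12.3% in either direction), and 3.47% higher and 4.99% lower in untreated livers (8.46% in either direction). Cldn2, Cldn3, Cldn6, Cldn7 and Cldn8 were higher and Cldn1 and Cldn5 lower in both treatments, and Cldn4 was higher in DDC livers and missed the threshold in untreated livers (interaction 2.96, adjusted p = 0.677). Cldn12 and Cldn14 were called in neither. In each treatment 5 claudins had every M+133+ sample above every M-133- sample, and 2 had every one below. Of all genes, 7.44% lay above and 6.81% below without overlap in DDC livers, and 15.3% and 18.3% in untreated livers. The median log2 difference over the 10 claudins was 3.38 in DDC livers (all genes 0.30) and 4.67 in untreated livers (all genes -0.09). The 10 claudins were chosen with earlier results of these data known, so these counts and medians are no independent test of the family.

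**Figure D1:**
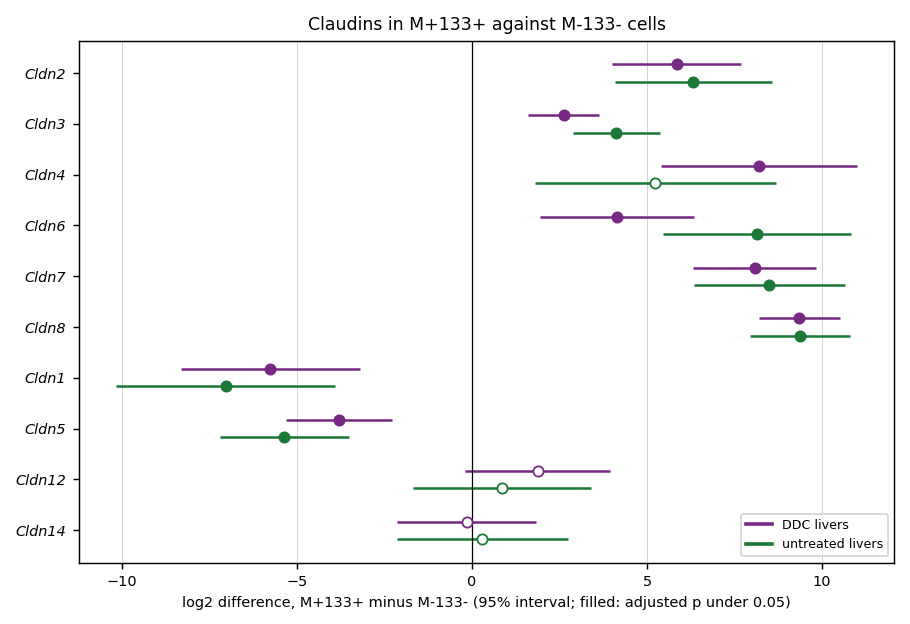
Log2 difference between M+133+ and M-133- cells (horizontal axis) for each of the 10 claudins (rows), with 95% intervals, in DDC livers (purple, upper) and untreated livers (green, lower). Cldn2, Cldn3, Cldn6, Cldn7 and Cldn8 lie right of 0 and Cldn1 and Cldn5 left of it, all filled (adjusted p under 0.05). For Cldn8, and for Cldn1 in untreated livers, one side was not well above background on any array.

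Cldn2 forms pores for small cations and water and belongs to leaky epithelia. Its level was 5.88, 3.28, 3.19 and 5.72 in M+133+ cells of DDC livers, against -0.64, -2.32, 0.03 and -2.37 in M-133- cells of DDC livers. In untreated livers it was 2.60, 3.92, 2.10 and 0.69 in M+133+ cells, against -3.08 and -4.90 in M-133- cells. The lowest M+133+ sample, 0.69, stood above the highest M-133- sample, 0.03. The difference was 5.84 in DDC livers (57.4-fold, SE 0.86, adjusted p = 0.000394) and 6.32 in untreated livers (79.7-fold, SE 1.05, adjusted p = 0.00170). Ordered by mean, the groups ran M+133+ DDC, M+133+ untreated, M-133- DDC, M-133- untreated, and of these neighbours only the 2 M+133+ groups overlapped.

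The sealing claudins Cldn3 and Cldn4, receptors for a Clostridium enterotoxin, gave different pictures. Cldn3 was at 3.03, 1.93, 3.28 and 2.54 in M+133+ and at 0.91, 0.30, -0.13 and -0.77 in M-133- cells of DDC livers. In untreated livers it was at 2.62, 2.76, 2.44 and 2.36 in M+133+ and at -2.14 and -0.999 in M-133- cells. The M+133+ samples lay close together and apart from all M-133- samples. The difference was 2.62 in DDC livers (6.15-fold, SE 0.48, adjusted p = 0.00191) and 4.12 in untreated livers (17.3-fold, SE 0.58, adjusted p = 0.000537). For Cldn4 the levels in DDC livers were 5.93, 3.05, 4.35 and 2.29 in M+133+ cells and -5.39, -4.18, -3.48 and -4.10 in M-133- cells. The groups did not overlap, and the difference of 8.19 (293-fold, SE 1.32, adjusted p = 0.000771) passed the test. In untreated livers Cldn4 was at 3.70, 3.25, -3.17 and 4.04 in M+133+ cells and at -2.52 and -4.03 in M-133- cells. Sample 3 of the M+133+ cells lay among the M-133- samples, and the difference of 5.23 (95% interval 1.79 to 8.67) missed the threshold at an adjusted p of 0.0602. Without that sample the difference was 6.94 and the adjusted p 0.00103. In the authors' deposited table, whose sort folds run M-133- over M+133+, Cldn4 of untreated livers has a signed fold of -76.9 and a false discovery rate of 2.19%.

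Cldn7 binds the adhesion molecule Epcam and lies along the lateral membrane of many epithelia. Its probe is shown because the files place its 60 bases over 310 bases of mm9, chr11:69780780-69781089, plus strand.
Cldn7 probe: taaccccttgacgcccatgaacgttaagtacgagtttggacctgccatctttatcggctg
Cldn7 was at 6.18, 3.42, 4.45 and 4.87 in M+133+ and at -1.46, -4.07, -5.66 and -2.18 in M-133- cells of DDC livers. In untreated livers it was at 3.77, 4.35, 3.26 and 3.20 in M+133+ and at -4.38 and -5.32 in M-133- cells. Every M+133+ sample was above every M-133- sample. The difference was 8.07 in DDC livers (269-fold, SE 0.83, adjusted p = 1.95e-05) and 8.49 in untreated livers (361-fold, SE 1.01, adjusted p = 0.000152). With clone-like and predicted gene names left out, the gene most like it over the 14 samples was Epcam (Pearson r = 0.988), itself one of the bile duct markers. Degs2 (r = 0.987) and Serinc2 (r = 0.982) followed.

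Cldn8, a sealing claudin of the distal kidney tubule, was the claudin with the clearest off state. It was at 0.46, 1.00, 1.14 and 0.14 in M+133+ cells of DDC livers and at 1.48, 1.62, 1.18 and 1.59 in those of untreated livers. In M-133- cells it was not well above background on any array, with levels of -8.56, -9.25, -8.27 and -8.58 in DDC livers and of -7.78 and -8.02 in untreated livers. Against the dimmest signal called well above background, Cldn8 was at least 156-fold higher in M+133+ cells of DDC livers (adjusted p = 1.92e-07) and at least 181-fold higher in those of untreated livers (adjusted p = 2.46e-06). Such bounds use the processed signal. After another background correction (normexp, which lifts dim spots by an offset of 50), the log2 difference was 5.48 in DDC livers and 4.82 in untreated livers, and both passed the test. The genes most like Cldn8 were Ildr1 (r = 0.997), Macc1 (r = 0.993) and Cltrn (r = 0.993).

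The mean level of the 7 bile duct markers was also higher in M+133+ cells, from 3.85 to 5.19 in M+133+ DDC, 3.66 to 3.84 in M+133+ untreated, -2.10 to -0.66 in M-133- DDC and -3.95 to -2.35 in M-133- untreated samples. Their part in the results on Cldn2, Cldn3, Cldn4, Cldn6, Cldn7 and Cldn8 was not tested.

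Cldn6 is known from embryonic epithelia. In untreated livers it was at 3.75, 4.18, 4.40 and 4.71 in M+133+ cells and at -4.39 and -3.35 in M-133- cells, a difference of 8.13 (281-fold, SE 1.26, adjusted p = 0.00104). In DDC livers it was at -0.62, 3.52, 3.71 and 1.73 in M+133+ cells and at 0.26, -3.51, -4.22 and -0.77 in M-133- cells. There the groups overlapped: the lowest M+133+ sample, at -0.62, was below the highest M-133- sample, at 0.26. Sample numbers do not match samples of the 2 sorts to each other. The difference in DDC livers was 4.15 (17.7-fold, SE 1.03, adjusted p = 0.0147). With the slide as a fixed block it was 3.19 at an adjusted p of 0.264. Its false discovery rate for DDC livers in the authors' deposited table is 7.89%.

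Cldn1 seals the bile canaliculi between hepatocytes, and its human counterpart is a coreceptor of hepatitis C virus. It ran the other way. In DDC livers it was at -6.45, -1.30, -1.86 and -6.86 in M+133+ cells and at 2.14, 2.75, -0.18 and 1.89 in M-133- cells. Samples 1 and 4 of the M+133+ cells were not well above background there, and samples 2 and 3 were. In untreated livers Cldn1 was not well above background on any M+133+ array. Its levels there were -8.09, -8.17, -7.97 and -7.22, against 0.45 and -2.10 in M-133- cells. It was lower in M+133+ cells by 5.77 on the log2 scale in DDC livers (a difference of -5.77, SE 1.20, adjusted p = 0.00473). From the processed signal it was at least 70.8-fold lower in those of untreated livers (adjusted p = 0.00743). With normexp the log2 difference was -4.46 in DDC livers and -4.04 in untreated livers, both still called. With the slide as a fixed block the difference was -5.17 in DDC livers (adjusted p = 0.152) and -6.15 in untreated livers (adjusted p = 0.0527). Without M-133- sample 1 of untreated livers it was -5.77 there (adjusted p = 0.131). A fit that leaves 1 sample in that group, here and below, assumes that the lone sample varies like the other groups. The probe described lies at chr16:26359010-26359069 of mm9. The second Cldn1 probe, at chr16:26357372-26357431, gave -4.68 in DDC livers (adjusted p = 0.00620) and -3.28 in untreated livers (adjusted p = 0.140), so both probes had the same direction and only one was called in untreated livers. The genes most like Cldn1 were Gc (r = 0.965), the vitamin D binding protein made by hepatocytes, Saa2 (r = 0.964) and Fst (r = 0.960).

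The mean level of the 7 hepatocyte markers moved with Cldn1 between the sorts but not in every sample. Over samples it ran from -3.21 to 1.27 in M+133+ DDC cells, from -2.13 to -0.78 in M+133+ untreated cells, from 3.61 to 4.40 in M-133- DDC cells and from 3.40 to 4.45 in M-133- untreated cells. The M+133+ DDC sample 2, with Cldn1 at -1.30, had the highest hepatocyte mean of its group (1.27). Sample 3, with Cldn1 at -1.86, had the lowest (-3.21). Their part in the Cldn1 result was not tested.

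Cldn5 is the main claudin of endothelial tight junctions and of the blood-brain barrier. Its level was -3.65, -3.67, -2.69 and -2.79 in M+133+ cells of DDC livers, against -0.52, 0.35, 0.25 and 2.33 in M-133- cells of DDC livers. In untreated livers it was -1.65, -1.30, 0.00 and -2.68 in M+133+ cells, against 3.81 and 4.12 in M-133- cells. Neither pair overlapped. It was lower in M+133+ cells by 13.9-fold in DDC livers (difference -3.80, SE 0.70, adjusted p = 0.00216) and by 41.3-fold in untreated livers (difference -5.37, SE 0.86, adjusted p = 0.00135). The mean of the 7 endothelial markers ran alongside, from -3.76 to -2.11 in M+133+ DDC cells, -2.19 to -0.15 in M+133+ untreated cells, 0.56 to 3.44 in M-133- DDC cells and 4.65 to 4.97 in M-133- untreated cells. Their part in the Cldn5 result was not tested. The genes most like it were Arhgap31 (r = 0.962), Gimap4 (r = 0.953) and C1qtnf1 (r = 0.949).

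**Figure D2:**
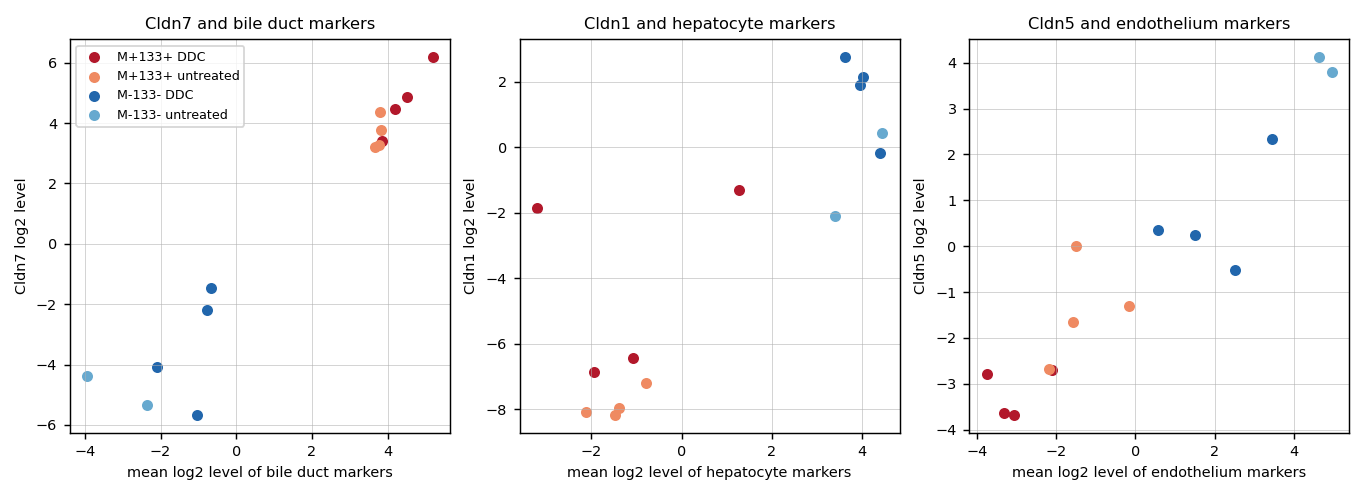
Level of a claudin (vertical axis, log2) against the mean level of 7 markers of a cell type (horizontal axis, log2), 1 point per sample, coloured by group. Cldn7 and the bile duct markers are high together in all M+133+ samples, Cldn5 is highest in the 2 M-133- untreated samples with the highest endothelial means, and M+133+ DDC samples 2 and 3 have Cldn1 at -1.30 and -1.86 with hepatocyte means of 1.27 and -3.21.

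Cldn12, which lacks the usual tail that binds scaffold proteins, had no call. It was at 0.96, -2.37, -2.06 and 0.21 in M+133+ and at -4.23, -3.41, -0.75 and -2.34 in M-133- cells of DDC livers. In untreated livers it was at -2.50, -1.85, -2.72 and -2.55 in M+133+ and at -1.62 and -4.90 in M-133- cells. All 4 groups overlapped with their neighbours in the order of means. The difference was 1.87 in DDC livers (95% interval -0.20 to 3.94) and 0.85 in untreated livers (95% interval -1.69 to 3.39). Cldn14, a claudin of the kidney and inner ear, was at -2.29, -2.92, -5.50 and -6.10 in M+133+ and at -5.24, -3.21, -5.34 and -2.41 in M-133- cells of DDC livers. In untreated livers its levels were -3.86, -3.99, -3.72 and -3.72 in M+133+ and -3.53 and -4.71 in M-133- cells. Its group means lay within 0.38 of each other on the log2 scale, and the differences were -0.15 in DDC livers (95% interval -2.13 to 1.83) and 0.30 in untreated livers (95% interval -2.13 to 2.73).

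**Figure D3:**
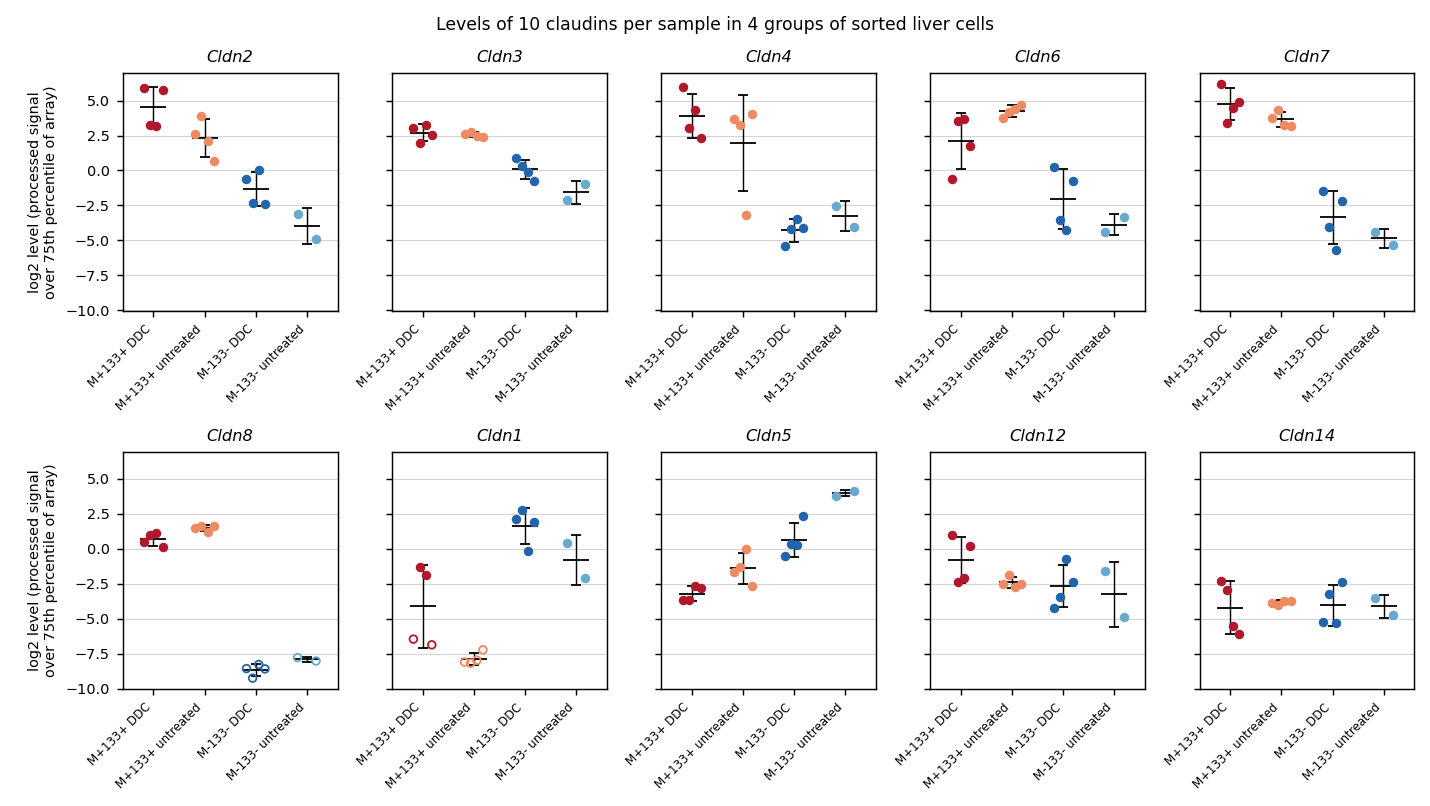
Levels of the 10 claudins (log2 processed signal over the 75th percentile of the array) in each sample, by group, with the group mean and SD in black (n = 4, 4, 4 and 2). Open circles mark samples with no array well above background: Cldn8 is open in all 6 M-133- samples and Cldn1 in all 4 M+133+ untreated samples, and one M+133+ untreated sample of Cldn4 lies at -3.17.

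Arrays were hybridised on 5 slides, and no slide held both sorts of DDC livers. The sort difference in DDC livers therefore cannot be told apart from slide within any slide. With the slide as a fixed block it is estimated only through untreated arrays, and 1117 genes were called there, against 2961 in the main setting. Slides 2 and 4 each held 1 array of both sorts of untreated livers, M+133+ sample 1 or 4 and M-133- sample 2. On slides 2 and 4 the differences between M+133+ and M-133- arrays were 10.00 and 7.80 for Cldn7, 8.16 and 7.08 for Cldn6, and 7.45 and 5.62 for Cldn2. For Cldn4 they were 7.26 and 8.58, and for Cldn3 2.75 and 4.24. Those of Cldn1 were -5.87 and -4.82 with the M+133+ arrays not well above background, and those of Cldn5 -5.14 and -6.87. All 7 claudins kept on both slides the direction they had over all samples.

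The second question was what DDC feeding changed within each sort. By limma none of the 10 claudins was called in M+133+ cells, where 0.232% of all genes were (0.137% higher, 0.0953% lower), and none in M-133- cells, where 0.949% were (0.58% higher, 0.369% lower). At an unadjusted threshold of 0.05 the test passed 2944 genes in M+133+ cells, among them Cldn1, Cldn2 and Cldn5, and 3095 genes in M-133- cells, among them Cldn2, Cldn3 and Cldn5. Both DDC comparisons share samples with both sort comparisons. The median difference over the 10 claudins was 0.62 in M+133+ cells (all genes 0.06) and 1.04 in M-133- cells (all genes -0.38).

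**Figure D4:**
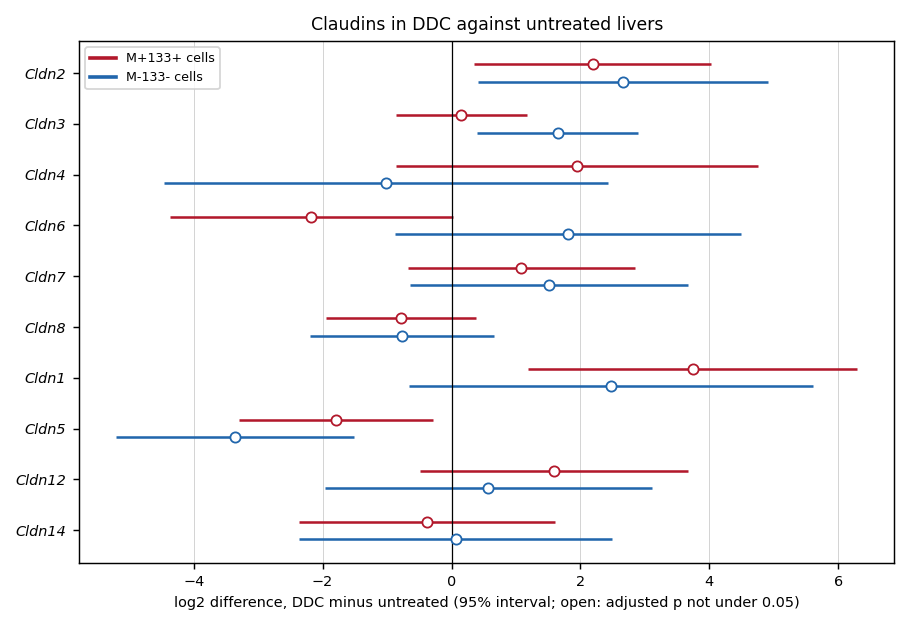
Log2 difference between DDC and untreated livers (horizontal axis) for the 10 claudins (rows), with 95% intervals, in M+133+ cells (red, upper) and M-133- cells (blue, lower). All points are open (no adjusted p under 0.05), and Cldn5 lies left of 0 in both sorts (-1.79 and -3.36). Cldn8 in M-133- cells was not well above background on any array of either treatment.

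Cldn5 came nearest to a call. In M-133- cells it was at -0.52, 0.35, 0.25 and 2.33 in DDC livers and at 3.81 and 4.12 in untreated livers, with no overlap (difference -3.36, SE 0.86, adjusted p = 0.0887). In M+133+ cells too, all 4 DDC samples were below all 4 untreated samples, by a narrow margin (-2.69 against -2.68 at the closest), with a difference of -1.79 (SE 0.70, adjusted p = 0.315). Within slides the M-133- difference was -4.33 on slide 1 and -3.74 on slide 2. For M+133+ cells it was -3.01 on slide 3 and -0.06 on slide 4. All 7 endothelial markers had lower values in M-133- cells of DDC than of untreated livers, none of them called, with list means of 0.56 to 3.44 in DDC livers and of 4.65 and 4.97 in untreated livers. Their part in the Cldn5 result was not tested. In M-133- cells it passed the threshold with the slide as a random block (adjusted p = 0.0420) and without M-133- DDC sample 4 (adjusted p = 0.0349).

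Cldn1 in M+133+ cells was well above background in DDC samples 2 and 3 and in no other sample of this comparison. Its levels were -6.45, -1.30, -1.86 and -6.86 in DDC livers, against -8.09, -8.17, -7.97 and -7.22 in untreated livers. The order of DDC samples 1 and 4 and the untreated samples thus rests on signals not well above background. From the processed signal the difference was 3.74 on the log2 scale (95% interval 1.19 to 6.30, adjusted p = 0.222). That size depended on the processing: with normexp the same probe differed by 1.69 on the log2 scale (adjusted p = 0.458). The second Cldn1 probe differed by 1.65 (adjusted p = 0.556), with DDC samples at -7.57, -3.65, -8.89 and -8.82 that overlapped the untreated samples at -8.71, -8.95, -8.91 and -8.95. In M-133- cells Cldn1 differed by 2.47 (95% interval -0.66 to 5.60, adjusted p = 0.533).

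The difference of Cldn2 between DDC and untreated livers was 2.19 in M+133+ cells (95% interval 0.36 to 4.03, adjusted p = 0.314) and 2.67 in M-133- cells (95% interval 0.42 to 4.91, adjusted p = 0.288). In M-133- cells its 4 DDC samples were above both untreated samples, and so were those of Cldn3, with a difference of 1.65 (95% interval 0.40 to 2.89, adjusted p = 0.228). Of the 7 bile duct markers, 2 were called higher after DDC in M-133- cells, and their part in these values was not tested. Cldn3 in M+133+ cells was the claudin nearest to no difference, 0.15 with a 95% interval of -0.87 to 1.17. Cldn4 differed by 1.95 (95% interval -0.86 to 4.76) in M+133+ cells, and Cldn7 by 1.09 (95% interval -0.68 to 2.85). In M-133- cells Cldn4 differed by -1.01 (95% interval -4.45 to 2.43), and Cldn7 by 1.51 (95% interval -0.65 to 3.67). Apart from Cldn2 and from Cldn3 in M-133- cells, these intervals include 0.

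Cldn6 and Cldn8 had lower values after DDC in M+133+ cells without passing the test. For Cldn6 the 4 DDC samples (-0.62, 3.52, 3.71 and 1.73) were all below the untreated samples (3.75, 4.18, 4.40 and 4.71), with a difference of -2.18 (95% interval -4.37 to 0.02, adjusted p = 0.415). DDC samples 2 and 3 came close to the lowest untreated sample, and samples 1 and 4 lay well below it. The Cldn8 samples did not overlap either, at 0.46, 1.00, 1.14 and 0.14 in DDC livers and 1.48, 1.62, 1.18 and 1.59 in untreated livers, and the difference was -0.78 (95% interval -1.94 to 0.38, adjusted p = 0.617). In M+133+ cells, 3 of the 10 claudins (Cldn5, Cldn6 and Cldn8) were thus below without overlap, and 1 above (Cldn1), where 4.14% and 3.94% of all genes were. Cldn1 is counted by its brighter probe, with signals not well above background on both sides. In M-133- cells 2 claudins were below (Cldn5, and Cldn8 with no array well above background) and 2 above (Cldn2 and Cldn3), where 13.5% and 6.87% of all genes were. Cldn12 and Cldn14 overlapped in both sorts, with differences of 1.59 and -0.38 in M+133+ cells and of 0.57 and 0.07 in M-133- cells.

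The third question was whether the sort difference itself changed with DDC. The interaction, the sort difference in DDC livers minus that in untreated livers, was called for none of the 10 claudins and for 0.249% of all genes (0.0622% higher, 0.187% lower, with 2438 genes past an unadjusted threshold of 0.05). Cldn6 had the largest value, -3.99 (SE 1.63, adjusted p = 0.428), and it alone of the 10 claudins passed the unadjusted threshold. Its sort difference was 4.15 in DDC livers and 8.13 in untreated livers. Cldn3 followed by p, with -1.50 (95% interval -3.11 to 0.11, adjusted p = 0.531). For Cldn8 the interaction was -0.01 (95% interval -1.86 to 1.83), with M-133- cells not well above background in either treatment. Cldn7 had -0.42 (95% interval -3.21 to 2.36) and Cldn2 -0.47 (95% interval -3.38 to 2.43).

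Over the 14 samples Cldn7 correlated with Cldn8 (r = 0.935), Cldn3 (r = 0.924) and Cldn2 (r = 0.903), but the samples come from both sorts, between which all 4 genes differed. With group means subtracted, the r of Cldn7 was -0.19 with Cldn8, 0.27 with Cldn3 and 0.27 with Cldn2. The strongest such values among the members were -0.74 between Cldn6 and Cldn12 and 0.69 between Cldn2 and Cldn12. They are descriptions over 14 samples that share arrays and normalization. The genes most like the others were F3 for Cldn2 (r = 0.976), Tmem45a for Cldn3 (r = 0.968), Parm1 for Cldn4 (r = 0.951), Slc9b2 for Cldn6 (r = 0.957), Rgs8 for Cldn12 (r = 0.925) and Scgb3a2 for Cldn14 (r = 0.848).

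Of the 16 other claudins on the arrays, 14 were tested, and Cldn34b3 and Cldn34d were not. In DDC livers 1 was higher in M+133+ than in M-133- cells, a share near that of all genes (6.09%), and in untreated livers 2 were (all genes 3.47%). Cldn23 was called in both: it was at 0.11, -0.54, 0.70 and 1.17 in M+133+ cells of DDC livers and at -0.21, 2.05, -0.25 and -0.88 in those of untreated livers, and not well above background on any M-133- array. From the processed signal the bound was at least 124-fold in DDC livers (adjusted p = 5.86e-06) and at least 74.0-fold in untreated livers (adjusted p = 0.000105). With normexp the log2 difference was smaller, 4.91 in DDC livers and 3.43 in untreated livers, both still called. Cldn10, whose splice forms make pores for cations or anions, was the only claudin called for DDC. In M+133+ cells it was at -5.29, -4.97, -4.05 and -4.76 in DDC livers and at 0.01, -1.81, 0.69 and -0.13 in untreated livers, a difference of -4.45 (SE 0.70, adjusted p = 0.0208). All DDC samples lay far below all untreated samples, and on slides 3 and 4 the difference was -4.56 and -4.27. The difference was -4.12 without M+133+ untreated sample 3 (adjusted p = 0.0755), -4.39 without M+133+ untreated sample 4 (adjusted p = 0.0739) and -4.45 without M+133+ DDC sample 4 (adjusted p = 0.0590). In M-133- cells Cldn10 was at -6.79, -4.85, -5.09 and -5.90 in DDC livers and at -5.51 and -4.77 in untreated livers. Its sort difference in untreated livers was 4.83 (SE 0.86, adjusted p = 0.00258), and its samples of both sorts overlapped in DDC livers.

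**Figure D5:**
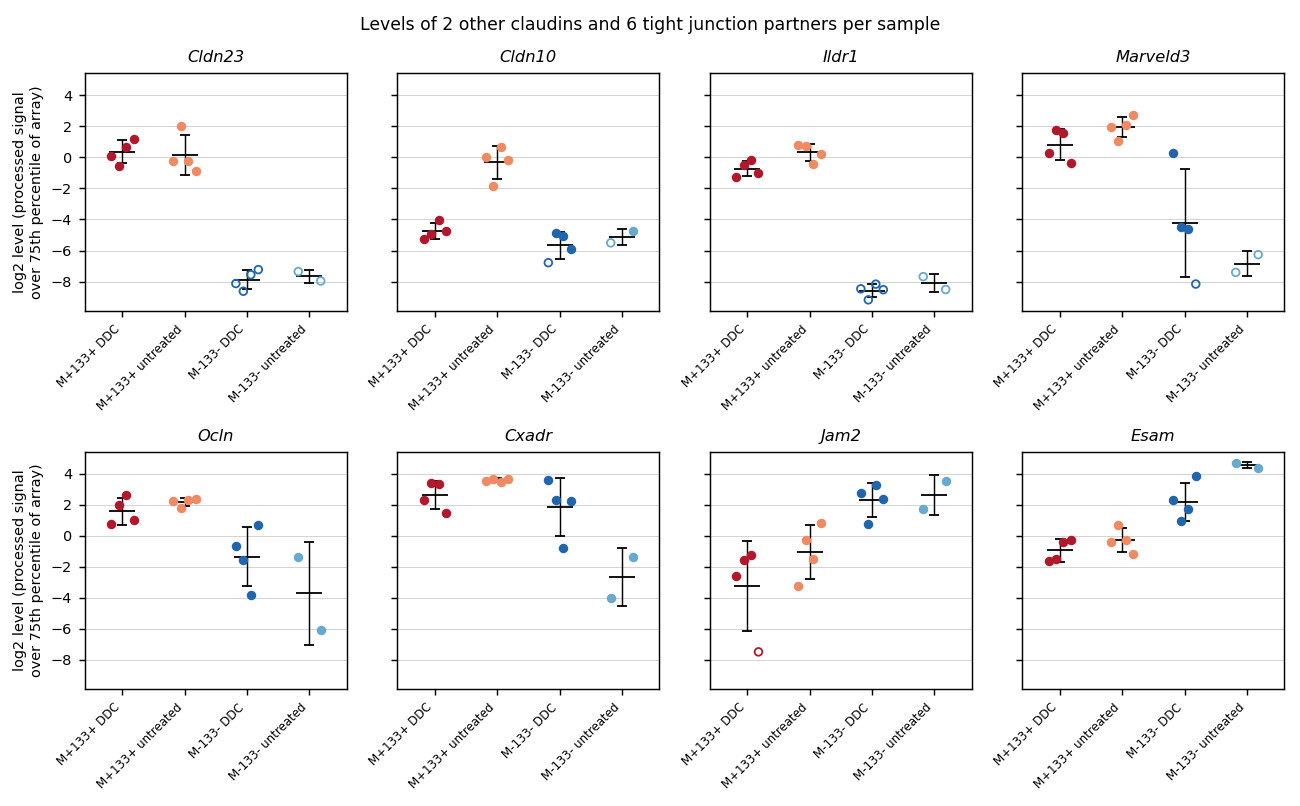
Levels of Cldn23, Cldn10 and 6 tight junction partners (log2 processed signal over the 75th percentile of the array) per sample and group, with the group mean and SD in black (n = 4, 4, 4 and 2) and open circles for samples not well above background on any array. Cldn23 and Ildr1 are open in all M-133- samples. Cldn10 is between -1.81 and 0.69 in M+133+ untreated cells and below -4 in all other samples, and Esam is above 0.9 in all M-133- samples.

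Claudins work with other junction proteins, and those were read from lists of textbook members, chosen with earlier results of these data known. Of 16 tight junction membrane proteins and scaffolds, 6 were higher and 2 lower in M+133+ cells of DDC livers, and 8 higher and 1 lower in those of untreated livers (median difference 1.42 and 2.62, all genes 0.30 and -0.09). Of all genes, 6.09% were called higher and 6.18% lower in DDC livers, and 3.47% higher and 4.99% lower in untreated livers. Ildr1, a protein of tricellular junctions, was at -1.26, -0.46, -0.16 and -1.01 in M+133+ cells of DDC livers and at 0.80, 0.74, -0.41 and 0.20 in those of untreated livers. It was not well above background on any M-133- array. Ildr1 was at least 58.6-fold higher in M+133+ cells of DDC livers (adjusted p = 1.17e-06) and at least 82.4-fold higher in those of untreated livers (adjusted p = 9.54e-06). Marveld3, related to occludin, was higher by 5.07 in DDC livers (SE 1.27, adjusted p = 0.0158, or 0.171 with the slide as a fixed block) and at least 227-fold higher in untreated livers (adjusted p = 0.00250). Occludin itself, Ocln, was higher by 5.88 in untreated livers (SE 1.22, adjusted p = 0.00715), and by 3.53 without M-133- untreated sample 2 (adjusted p = 0.150). In DDC livers Ocln ran from 0.73 to 2.61 in M+133+ cells and from -3.82 to 0.70 in M-133- cells. The 2 members lower in M+133+ cells of DDC livers were Jam2 (-5.52, SE 1.23, adjusted p = 0.00773) and Esam (-3.15, SE 0.63, adjusted p = 0.00377), adhesion molecules known from endothelium. In untreated livers Esam ran from -1.17 to 0.72 in M+133+ cells and from 4.40 to 4.68 in M-133- cells. Jam2 ran there from -3.22 to 0.85 in M+133+ cells and from 1.72 to 3.53 in M-133- cells. In M-133- cells the virus receptor Cxadr was higher after DDC by 4.51 (adjusted p = 0.0453), the only member of the list called for DDC in either sort. The Cxadr difference was 3.41 with normexp (adjusted p = 0.0817) and 3.93 with the slide as a fixed block (adjusted p = 0.230). Its call was also lost with the replicate number as a block, without the intensity trend and without the filter on dim probes. The same held with only the second array of each repeated sample. That call was lost in 12 of the 14 fits that left out 1 sample, with adjusted p from 0.0520 to 0.376 in those 12, the highest without M-133- untreated sample 1.

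Of 20 members of polarity complexes, which place the junctions, 7 were higher in M+133+ cells of DDC livers (6.09% of all genes) and 4 in those of untreated livers (3.47%), and none was lower. Pard6b, the adaptor of the Par complex, was higher by 5.91 in DDC livers (SE 0.53, adjusted p = 7.13e-06) and by 4.84 in untreated livers (SE 0.65, adjusted p = 0.000384). Patj, of the Crumbs complex, was higher by 4.99 in DDC livers (adjusted p = 0.0188) and by 6.30 in untreated livers (adjusted p = 0.0222). Both Patj calls were lost without single samples. In DDC livers the difference was 4.66 without M+133+ DDC sample 4 (adjusted p = 0.0563). For untreated livers it was 6.11 without M+133+ untreated sample 4 (adjusted p = 0.0511), 7.10 without M-133- untreated sample 1 (adjusted p = 0.0895) and 5.50 without M-133- untreated sample 2 (adjusted p = 0.180). Of 17 adherens junction and desmosome genes, 8 were higher in M+133+ cells of DDC livers (6.09% of all genes) and 7 in those of untreated livers (3.47%), with none lower. Cdh1, E-cadherin, was higher by 3.71 in DDC livers (SE 0.56, adjusted p = 0.000482) and by 6.25 in untreated livers (SE 0.69, adjusted p = 8.30e-05). Evpl, envoplakin, which links desmosomes to keratins, was higher by 6.39 in DDC livers (SE 0.49, adjusted p = 1.56e-06) and by 7.28 in untreated livers (SE 0.60, adjusted p = 7.07e-06). Dsg2, a desmosomal cadherin, was the member of this list called for DDC, higher by 3.605 in M-133- cells (SE 0.68, adjusted p = 0.0205). With normexp the Dsg2 difference was 2.50 (adjusted p = 0.0823). The difference was 3.85 without M-133- untreated sample 1 (adjusted p = 0.0894) and 3.36 without sample 2 (adjusted p = 0.0998).

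Of 19 transcription and splicing factors known to act on epithelial junction genes, 17 were tested. In M+133+ cells 6 were higher and 3 lower in DDC livers (6.09% and 6.18% of all genes), and 7 were higher and 3 lower in untreated livers (3.47% and 4.99%). Grhl2, a Grainyhead-like factor known to act on Cldn4 and Cdh1, was higher by 6.18 in untreated livers (SE 0.74, adjusted p = 0.000152). In DDC livers Grhl2 ran from 1.51 to 2.45 in M+133+ cells and from -5.14 to -2.75 in M-133- cells. Elf3, an Ets factor of epithelia, was higher by 7.89 in DDC livers (SE 1.21, adjusted p = 0.000536) and at least 355-fold higher in untreated livers (adjusted p = 0.000486). In M-133- cells of DDC livers Elf3 was well above background on 2 of 4 arrays. Zeb2, a repressor, was at -6.21, -1.22, -4.48 and -5.84 in M+133+ and at 2.37, 3.15, 2.37 and 3.30 in M-133- cells of DDC livers. The groups did not overlap, and the difference was -7.24 (SE 0.92, adjusted p = 0.000110). In untreated livers Zeb2 ran from -2.43 to 0.02 in M+133+ cells and from 3.35 to 3.55 in M-133- cells. Any part of Zeb2 in the claudin levels was not tested. Snai2, of the Snail family, was lower by 7.84 on the log2 scale in M+133+ cells of DDC livers (difference -7.84, SE 1.83, adjusted p = 0.0103). It was well above background on 2 of the 4 M+133+ arrays there, with levels from -8.82 to -1.26. The size of that difference thus rests in part on signals not well above background. In untreated livers Snai2 ran from -8.80 to 0.97 in M+133+ cells and from 1.32 to 2.57 in M-133- cells. Of this list, Grhl1 alone was called for DDC, higher by 5.19 in M-133- cells (adjusted p = 0.0215), and by 3.26 without M-133- untreated sample 1. It was well above background on 1 of 3 M-133- untreated arrays. The difference was 1.77 with normexp (adjusted p = 0.207) and 3.43 with the slide as a fixed block (adjusted p = 0.329). The call was also lost with the mean of all kept probes and with only the second array of each repeated sample. The markers of stellate cells and fibroblasts, which also use Zeb2 and Snai2, were lower in M+133+ cells of DDC livers for 7 of 7, with list means from -4.57 to -0.93 in M+133+ cells and from 3.14 to 4.33 in M-133- cells. Each of these markers was well above background on some array of every group, and their part in these results was not tested.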

How the data were processed

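Per the labels, amplified cDNA of sorted liver cells carried Cy3 and was hybridised to Agilent mouse arrays in 1 colour. The deposited array files give background-subtracted processed signals and raw spot means as intensity, made with Feature Extraction 10.5.1.1 and annotated on mm9, per the file headers. The authors' deposited table gives signed fold changes and false discovery rates in percent, both handled here as a score, and the submitters' processing notes name limma. How that table was normalized is not given in the sources used here.

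From these files, log2 processed signals had each array's 75th percentile subtracted. Repeat arrays of a sample were averaged. A probe was kept if well above background in at least 0.5 of the samples of 1 group, and the brightest probe per gene was used. Of 41174 probes, 32846 were named through a RefSeq table of GRCm38.p6. The test was that of limma 3.58.1 under R 4.3.3 (all 14 samples, 1 mean per group, moderated variances with intensity trend, two-sided), with Benjamini-Hochberg adjustment over 24127 genes and calls at an adjusted p under 0.05. SE is the moderated standard error. Folds marked "at least" were given where a gene was not well above background on any array of a group. They set the mean of the brighter group against the dim group. For each array of the dim group, the higher of the dimmest signal well above background and the probe's own signal was used. Such folds hold for the processed signal only, and another background correction can give smaller ones. The adjusted p beside them is that of the fitted difference and does not test the bound. Named genes are the 10 claudins, other claudins called anywhere, up to 4 called genes per list and comparison with the largest differences (a selection of these is given), and the 3 genes most like each claudin. Likeness was ranked by Pearson r among genes with a level in every sample, after clone-like, predicted-gene and accession-like names were left out. The claudins, lists and alternatives were chosen with earlier results of these data known. The fit was tested on simulated data.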

Additional observations from a re-analysis of the deposited data

Results flagged for a closer look

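Cldn4 in M+133+ untreated sample 3 stood apart from its group: its level was -3.17, against 3.25 to 4.04 in the other 3 M+133+ untreated samples, a gap of 0.890 of the whole range, above Dixon's 95% limit for 4 samples. The sample's other claudins of the same pattern were near those of its group, with Cldn3 at 2.44, Cldn6 at 4.40, Cldn7 at 3.26 and Cldn8 at 1.18. A total of 36 sets of a claudin and a group were examined in this way, and chance marks about 1 in 20.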

How the results depend on the processing

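The counts of claudins called were recomputed under 28 other settings. In M+133+ against M-133- cells of DDC livers 8 were called in the main setting and 6 to 8 in the others, and in untreated livers 7 and 6 to 8. For DDC against untreated in M-133- cells, the count of 0 became 1 (Cldn5, lower) with the slide as a random block, and ranged from 0 to 1 when 1 sample was left out. The cause was not tested. The interaction and the M+133+ cells stayed at 0 under every setting that gave a value. Of 1380 single values of claudins, 11 changed sides of the threshold, 6 gaining and 5 losing the call, and no called value changed sign. Cldn4 in untreated livers was gained with quantile normalization (adjusted p = 0.0482), the slide as a random block (0.0352) and only the first array of each sample (0.0455). With the replicate number as a block, the sort counts were 8 in DDC and 7 in untreated livers, and with the number that opens the sample titles as a block 8 and 6, where Cldn1 in untreated livers had an adjusted p of 0.0536. With that title number as a block, the DDC comparisons could not be fitted. The replicate block left the DDC difference of Cldn10 in M+133+ cells at -4.45 (adjusted p = 0.0578). In DDC livers every title number occurs in both sorts, and in untreated livers some do. The labels do not say whether a shared number marks a shared cell preparation. Correlations of deviations between samples of 1 number ran from -0.06 to 0.07 for replicate numbers and from -0.01 to 0.11 for title numbers. The main fit did not take the numbers as pairs. In untreated livers these correlations cannot decide whether samples were paired, because the deviations of the 2 M-133- samples mirror each other. Between the sorts of DDC livers they ran from -0.06 to 0.03 for replicate numbers and from -0.01 to 0.11 for title numbers. Whether samples were paired there was not tested.

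Counts over all genes moved more. They ran from 776 to 2337 for the sort in untreated livers (2040 in the main setting), 1117 to 3456 in DDC livers (2961), 6 to 157 for DDC in M+133+ cells (56), 118 to 352 for DDC in M-133- ones (229) and 1 to 95 for the interaction (60). Leaving out 1 sample gave 825 to 2227, 2389 to 2915, 6 to 115, 77 to 270 and 18 to 98 in the same order, the lowest without M-133- untreated sample 1, M+133+ DDC sample 4, M+133+ untreated sample 3, M-133- untreated sample 1 and M+133+ untreated sample 4. Without M-133- untreated sample 2 the sort in untreated livers had 1209 calls, and the interaction had 98, of which 69 were higher and 29 lower (15 and 45 in the main setting). DDC in M-133- cells then had 76 higher and 157 lower calls. With normexp the sort in untreated livers had 528 higher and 1235 lower calls (837 and 1203 in the main setting), and DDC in M-133- cells 111 and 152 (140 and 89), or 156 and 57 with quantile normalization. The median of all genes was, with normexp, -0.56 for the sort in untreated livers (-0.09 in the main setting), 0.80 for the interaction (0.40) and -0.81 for DDC in M-133- cells (-0.38). With quantile normalization it was -0.03 for the sort in DDC livers (0.30), -0.02 for the interaction and 0.05 for DDC in M-133- cells. Cldn1 and Cldn23, dim on one side, had -4.04 and 3.43 with normexp in untreated livers, both still called. The 2 M-133- untreated samples and signals near background limit what can be told.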
